A study of Rattus norvegicus with 12 samples.

Results

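The miR-135 family of the rat hippocampus is described here through its 4 mature miRNAs, rno-miR-135a-5p, rno-miR-135a-3p, rno-miR-135b-5p and rno-miR-135b-3p, out of 753 mature miRNAs listed for each library. The members were taken by name, both arms of each stem. The family itself was selected on the ethanol-vehicle difference of rno-miR-135a-3p in these same animals, so differences between the groups are given below as descriptions, and counts of members past a threshold stand beside the same share of all miRNAs and support nothing. Small RNA was sequenced from the right hippocampus of adult male Sprague Dawley rats aged P70 to P80. Tissue was collected 3 h after injection, from 4 rats given vehicle and 8 rats given ethanol at 4 g/kg, none of which carried a genetic change that the labels name. Both groups were raised in standard housing, and each library came from 1 rat. The design called for 8 rats per group, and the remaining vehicle rats were not analysed here. Rats are named below by group and animal number.

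A microRNA (miRNA) is cut from a hairpin precursor as a duplex of 2 strands, the 5p arm and the 3p arm, and the strand that is loaded into an Argonaute protein pairs with target mRNAs through its seed, bases 2 to 8. The other strand is usually degraded and is read less often. In the brain, miR-135 is known to act on the mRNAs of the serotonin transporter (Slc6a4) and the serotonin 1A receptor (Htr1a), and in hippocampal neurons it is known for a part in the shrinkage of dendritic spines during long-term depression.

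The 4 mature sequences are shown because the pair of 5p arms can be told apart by so little. They are written 5′ to 3′ as RefSeq lists them for the rat assembly GRCr8, where all 4 names were matched, and the seed is in capitals.
rno-miR-135a-5p: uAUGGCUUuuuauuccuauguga
rno-miR-135b-5p: uAUGGCUUuucauuccuauguga
rno-miR-135a-3p: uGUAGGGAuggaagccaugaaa
rno-miR-135b-3p: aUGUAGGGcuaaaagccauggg

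The 5p arms share the seed AUGGCUU, which no other mature miRNA among the 693 names of that table has. Over their 23 bases they are identical at 22 and differ by 1 substitution, U11C, written as the miR-135a-5p base, the position counted from the 5′ end, and the miR-135b-5p base. The 3p arms do not share a seed. The start of miR-135b-3p lies 1 base further upstream than that of miR-135a-3p when they are aligned, and over the 21 bases that overlap 16 are identical. Each 3p seed occurs in 1 of the 693 names. The arms come from different hairpins, shown with both mature arms in capitals.
Mir135a: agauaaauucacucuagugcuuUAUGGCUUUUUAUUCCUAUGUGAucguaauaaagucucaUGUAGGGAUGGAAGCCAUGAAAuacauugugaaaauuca
Mir135b: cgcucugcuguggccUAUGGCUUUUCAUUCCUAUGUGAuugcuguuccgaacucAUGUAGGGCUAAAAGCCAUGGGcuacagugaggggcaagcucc

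In GRCr8, Mir135a (100 bases) is on the minus strand of chromosome 7 within the long non-coding RNA LOC102548260, and Mir135b (97 bases) is on the plus strand of chromosome 13 within the spans of Lemd1 and Blacat1. The submitters' notes name another build, rn5, so no positions are given.

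Library totals ran from 2243413 to 4917928 counts in vehicle rats and from 1960704 to 3598771 in ethanol rats. At these depths 3 counts, taken as the smallest detectable amount, are worth between 0.610 and 1.53 CPM, the count scaled to a library of 1000000. This floor and the intervals below cover counting error only. The tissue label was checked against 6 neuronal miRNAs. Of these, 5 were abundant, and their summed level was between 33999 and 39266 CPM in vehicle rats and between 30931 and 38680 in ethanol rats. The other, miR-129-5p, was listed at 0 in every library. A 3p arm of miR-129, miR-129-2-3p, had a mean of 456 CPM, so the 0 is not read as absence. Its reason was not tested. Neuronal miRNAs can mark brain tissue but cannot tell the hippocampus from other brain regions. Choroid plexus markers, described below, summed to at most 50306 CPM in vehicle rats and 70943 in ethanol rats. In whole tissue, a change in the number of cells of a type and a change in RNA per cell cannot be told apart.

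Reads of the 5p arms had been divided between the 2 rows. Counts of miR-135a-5p and of miR-135b-5p were fractional in 12 of 12 libraries, whereas those of the 3p arms were whole in all of them. In vehicle rat 10, for example, 180.67 counts stood in the miR-135a-5p row and 65.33 in the miR-135b-5p row. Added together, the 5p counts came to within 0.01 of a whole number in 9 of 12 libraries and missed it by 0.0201 to 0.161 in the other 3. The summed 5p count therefore rests on whole reads in most libraries, and the division between miR-135a-5p and miR-135b-5p rests on the authors' estimate. Fractional counts were not particular to the family, occurring somewhere among the 12 libraries for 222 of the 753 miRNAs and in every library for 102.

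The most abundant member was miR-135a-5p. Its level was 65.4, 77.0, 99.3 and 94.3 CPM in vehicle rats 9, 10, 19 and 20, and it ran from 49.0 to 136 with a median of 88.9 in the 8 ethanol rats. Ethanol rat 8 was the highest and ethanol rat 24 the lowest of the 12. The group means were 84.0 ± 15.6 (SD, n = 4) and 92.2 ± 26.3 (SD, n = 8), and the groups overlapped, with 3 ethanol rats above every vehicle rat and 1 below every vehicle rat. By mean level over the 12 libraries it stood at place 188 of the 420 miRNAs kept for testing, between miR-423-5p (90.3 CPM) and miR-183-5p (89.4 CPM).

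The second 5p arm, miR-135b-5p, was the more variable. Vehicle rats 9, 10, 19 and 20 had 38.0, 27.7, 21.7 and 21.1 CPM. Ethanol rats ran from 23.9 to 82.5 with a median of 43.4. Ethanol rats 3, 4 and 24 held the 3 highest values, at 82.5, 66.4 and 57.3 CPM, and 5 of 8 ethanol rats lay above every vehicle rat, while 3 lay within the vehicle range. Group means were 27.1 ± 7.85 (SD, n = 4) and 47.9 ± 19.8 (SD, n = 8). Its coefficient of variation over the 12 libraries was 47.0%, against 25.6% for miR-135a-5p. It stood at place 247 of 420.

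The 3p arm of miR-135a, miR-135a-3p, was read 10 to 38 times per library. Vehicle rats 9, 10, 19 and 20 had 6.60, 4.26, 7.99 and 5.53 CPM, from 20, 10, 38 and 26 reads. Ethanol rats ran from 5.24 to 12.5 CPM with a median of 8.70. The highest values were in ethanol rats 8, 4 and 3, at 12.5, 11.9 and 10.2 CPM, and these were also the 3 rats with the most miR-135a-5p. The vehicle mean was 6.10 ± 1.59 (SD, n = 4) and the ethanol mean 8.70 ± 2.77 (SD, n = 8). Above every vehicle rat lay 4 of the 8 ethanol rats, and the rest were inside the vehicle range. Counting error was wide at this depth. For vehicle rat 10 the exact 95% Poisson interval was 2.04 to 7.83 CPM, and for ethanol rat 8 it was 8.52 to 17.8.

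The 3p arm of miR-135b was close to the detection floor. Reads of miR-135b-3p numbered 2, 2, 1 and 1 in vehicle rats 9, 10, 19 and 20, and 1 to 4 in ethanol rats. It was left out of the test across miRNAs for its low counts, and no fold between the groups is given for it. Summed over the libraries of a group, 6 reads in vehicle rats came to 0.410 CPM (exact 95% Poisson interval 0.150 to 0.892), and 23 reads in ethanol rats came to 1.05 CPM (0.663 to 1.57). These intervals leave out the spread between rats.

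**Figure D1:**
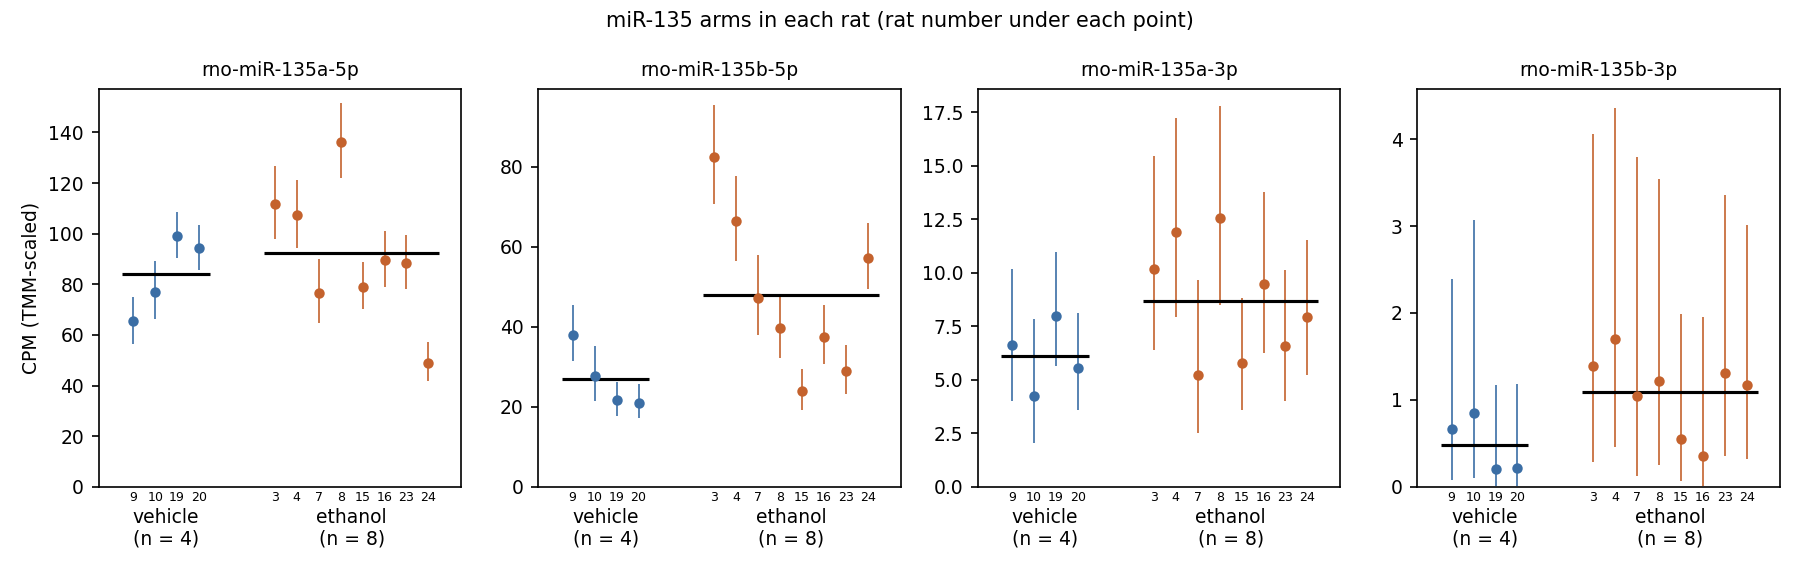
CPM (vertical axis, TMM-scaled) of each miR-135 arm in each rat, vehicle in blue and ethanol in orange, with the exact 95% Poisson interval as a thin line and the group mean as a black bar. The groups overlapped for all 4 arms, ethanol rat 3 was highest for miR-135b-5p at 82.5 CPM, and the intervals of miR-135b-3p, from 1 to 4 reads, covered most of the axis.

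Levels of the arms were then compared within each library, which asks which hairpin and which strand supplied the reads. The sequences are 22 or 23 bases long, so length does not enter, but ligation and amplification can favour some small RNA sequences, and this was not tested. On the log2 CPM scale (prior count of 2), miR-135a-5p exceeded miR-135b-5p in 11 of 12 libraries by a mean log2 ratio of 1.20 ± 0.73 (SD, n = 12), a geometric mean of 2.30-fold (two-sided exact sign-flip permutation test, p = 0.000977, also 0.000977 after adjustment over the 3 ratios). The exception was ethanol rat 24, where miR-135a-5p was at 0.858 of miR-135b-5p. This ratio and its p take the authors' division of the 5p reads as measured, and the error of that division is not included. The 5p arm exceeded the 3p arm of miR-135a in 12 of 12 libraries by 3.43 ± 0.40 (SD, n = 12) on the log2 scale, or 10.8-fold (range 5.79 to 15.8). For miR-135b the 5p arm exceeded the 3p arm in 12 of 12 libraries. Both had the smallest p that the exact permutation of signs over 12 libraries allows, 0.000488 (adjusted p = 0.000732). No fold is given for the arms of miR-135b, since miR-135b-3p was read at most 4 times and the mean log2 ratio was set largely by the prior count, at 4.70 with 2 and 5.33 with 0.5. In deposited counts, miR-135a-3p made up 5.24% to 13.9% of all miR-135a counts, and miR-135b-3p made up 0.929% to 4.35% of all miR-135b counts. The arm ratios and these shares also take the divided 5p rows as measured. The lowest ratio of the miR-135a arms, 5.79-fold, was in ethanol rat 24, the exception named above. In descending order the levels were thus miR-135a-5p, miR-135b-5p, miR-135a-3p and miR-135b-3p, and only the first 2 changed places, in 1 rat.

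The share of the 5p counts given to miR-135a-5p differed widely between rats. It was 63.2%, 73.4%, 82.1% and 81.7% in vehicle rats 9, 10, 19 and 20, and it ran from 46.0% to 77.5% with a median of 66.3% in ethanol rats. Ethanol rat 24 had the lowest share (46.0%, 95% Wilson interval 41.1% to 51.3%) and vehicle rat 19 the highest (82.1%, 78.7% to 85.0%). Vehicle rats 9 and 10 lay within the ethanol range, and 4 ethanol rats had shares below every vehicle rat. The Wilson intervals treat each count as a read and do not include the error of dividing reads between the rows.

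**Figure D2:**
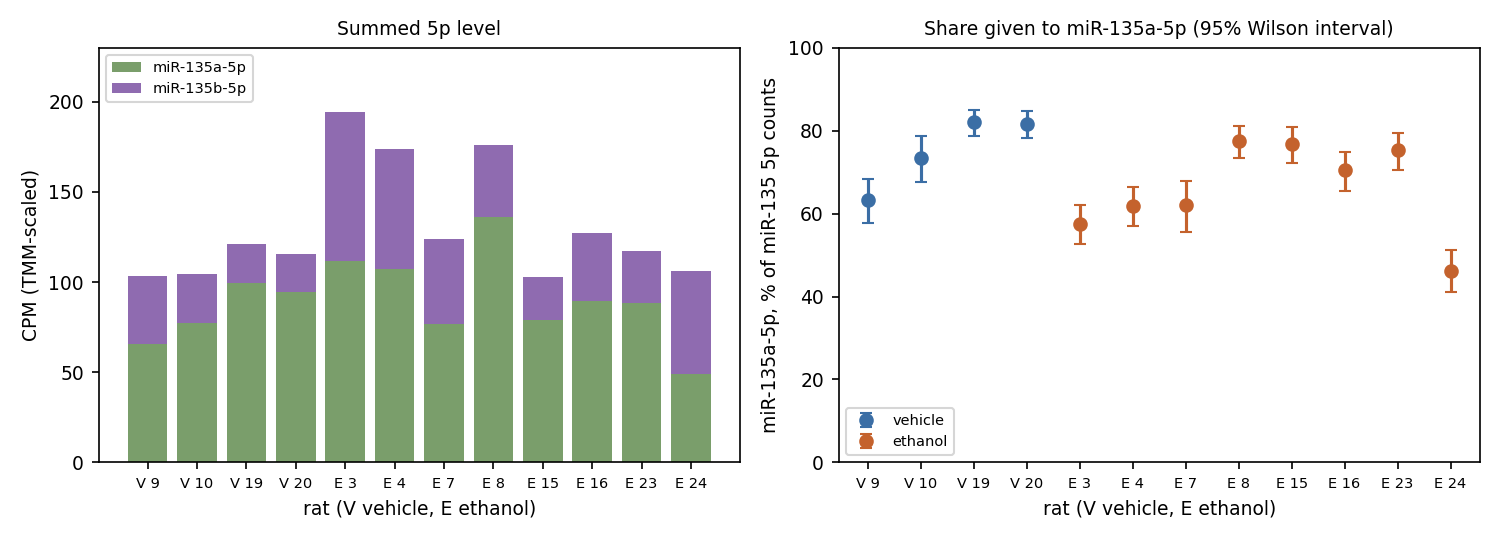
Left, stacked bars of miR-135a-5p (green) and miR-135b-5p (purple) in CPM for each rat. Right, the percentage of miR-135 5p counts assigned to miR-135a-5p with its 95% Wilson interval, from 46.0% in ethanol rat 24 to 82.1% in vehicle rat 19. Vehicle sums sit between 103 and 121 CPM, and ethanol rats 3, 4 and 8 stand at 174 or more.

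Summing the 5p rows removes the division of reads. The sums were 103, 105, 121 and 115 CPM in vehicle rats 9, 10, 19 and 20. In ethanol rats they ran from 103 to 194 with a median of 125, and the 3 highest were rats 3, 8 and 4, at 194, 176 and 174. The sum of ethanol rat 24, whose miR-135a-5p was lowest, was 106 CPM and inside the vehicle range. The vehicle mean was 111 ± 8.47 (SD, n = 4) and the ethanol mean 140 ± 35.5 (SD, n = 8), coefficients of variation of 7.62% and 25.3%. Of the 8 ethanol rats, 5 lay above every vehicle rat and 1 below. The fitted log2 difference of the sum, ethanol minus vehicle, was 0.34 (standard error 0.17). Kept apart, the same reads gave 0.13 (standard error 0.22) for miR-135a-5p and 0.82 (standard error 0.31) for miR-135b-5p. The 3p sum, in which miR-135a-3p dominates, differed by 0.55 (standard error 0.23).

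Ethanol was set against vehicle for all 420 retained miRNAs with edgeR's quasi-likelihood test on TMM-scaled counts, which places the miR-135 arms among the other miRNAs. Of the 4 members 3 were tested. The log2 difference of miR-135a-3p, the measure on which the family was selected, was 0.47 (standard error 0.25), and it stood at place 9 of the 420 differences ordered from the highest. That of miR-135b-5p stood at place 3 and that of miR-135a-5p at place 76. All 3 tested members had a fitted difference above 0, as did 46% of the 420 miRNAs. An adjusted p under 0.05 (Benjamini-Hochberg over the 420) was found for 0 of 3 members and for 0% of the 420. A raw p under 0.05 was found for 1 of 3 members and for 4.05% of the 420 (17 miRNAs), with 1.67% of the 420 having it and being higher after ethanol. DESeq2's Wald test gave 1 miRNA outside the family an adjusted p under 0.05. In CPM the groups failed to overlap for 0 of 3 members and for 0.238% of the 420. Nothing is read from these shares, since the family was picked with this contrast known.

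**Figure D3:**
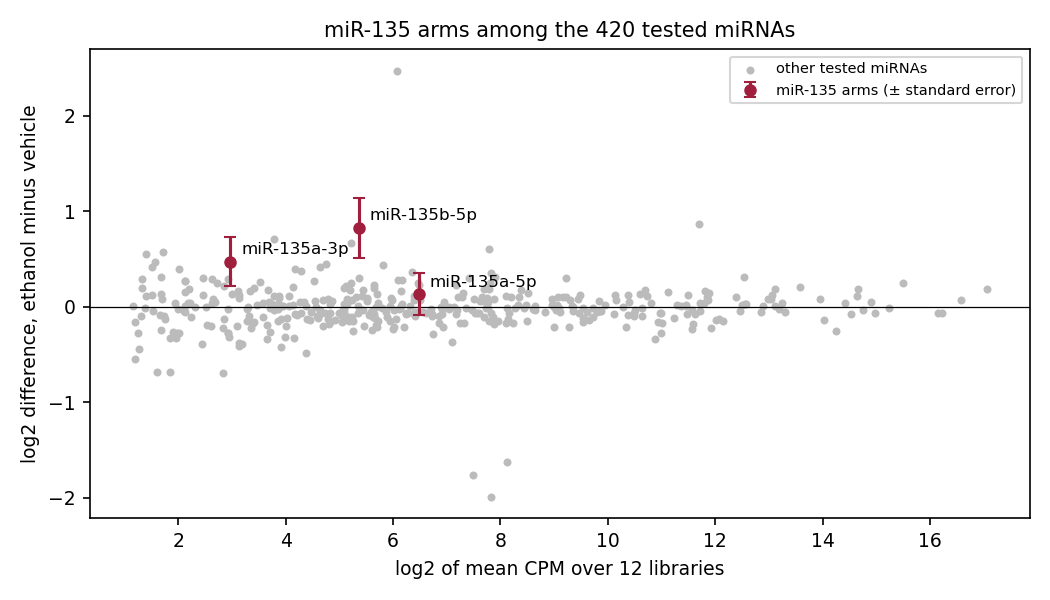
Fitted log2 difference, ethanol minus vehicle (vertical axis), against the log2 of mean CPM over the 12 libraries for the 420 tested miRNAs. The 3 tested miR-135 arms are in red with their standard errors, at 0.13, 0.47 and 0.82, and the other miRNAs are grey points.

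The size of the miR-135b-5p difference moved with library size. Its level was lower in larger libraries (Pearson r = -0.70 with the log2 library total over 12 libraries, permutation p = 0.0122, adjusted over 21 relations 0.0855, and Spearman rho = -0.69, p = 0.0170, adjusted 0.0890), and r was -0.49 without the 2 libraries farthest from the median total. Within the 8 ethanol libraries r was -0.66 (exact permutation p = 0.0808). The 2 largest libraries, vehicle rats 19 and 20, had the lowest miR-135b-5p. With the log2 library total as a covariate the log2 difference of miR-135b-5p fell from 0.82 to 0.47 (standard error 0.30), and that of miR-135a-3p was 0.49 (standard error 0.31). The count of members with a raw p under 0.05 was then 0, beside 11 over the 420 miRNAs. It was also 0 without vehicle rat 19 (21 of 424 miRNAs) and without vehicle rat 20 (5 of 422). It was 2 without ethanol rat 7 (16 of 425) and without ethanol rat 15 (14 of 425). In the main setting the counts were 1 of 3 members and 17 of 420 miRNAs. Both counts fell with the covariate and without vehicle rat 20. Without vehicle rat 19 only the member count fell. Without ethanol rat 7 or 15 the member count rose and the count over all miRNAs did not. The part of library size in the difference was not tested further. Omitting single rats gave differences between 0.02 (without vehicle rat 9) and 0.23 (without ethanol rat 24) for miR-135a-5p, between 0.67 and 1.03 for miR-135b-5p and between 0.35 and 0.64 for miR-135a-3p.

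**Figure D4:**
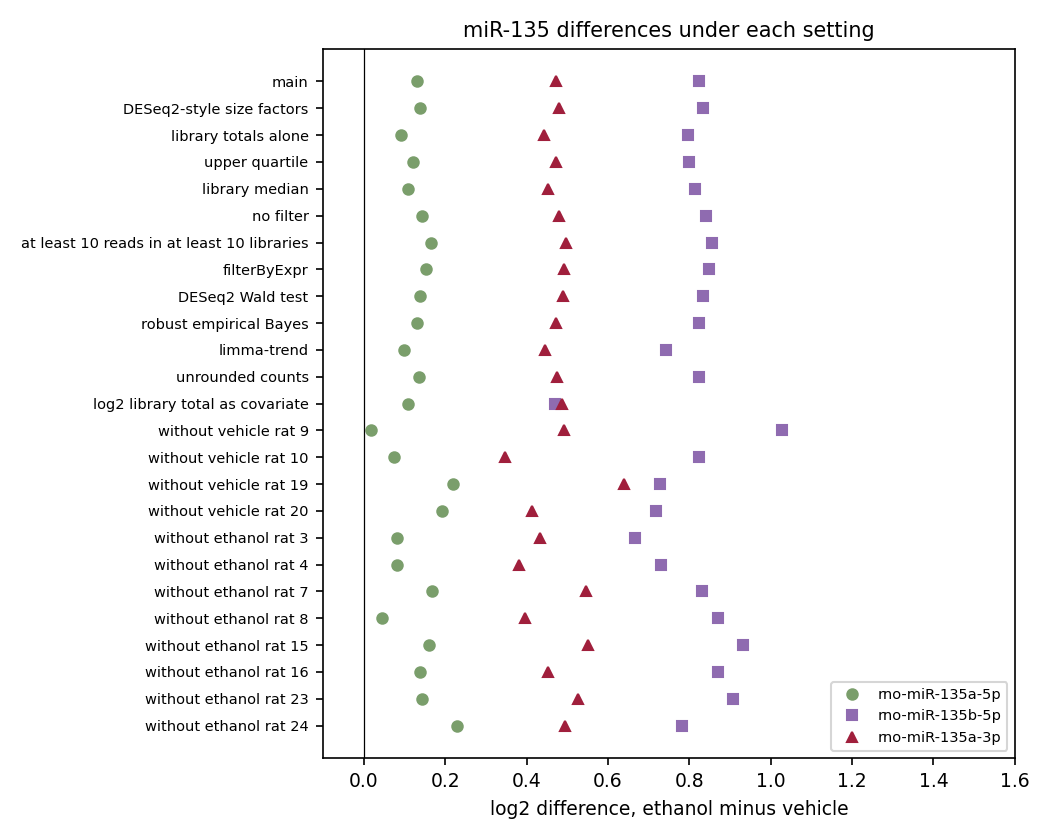
Fitted log2 difference, ethanol minus vehicle (horizontal axis), of miR-135a-5p (circles), miR-135b-5p (squares) and miR-135a-3p (triangles) under each setting (vertical axis), with the main setting at the top. All values lie above 0, and miR-135b-5p moves most, to 0.47 with the library total as a covariate. The settings reuse the same libraries, so nothing is read from the shared sign.

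Whether the 4 arms rose and fell together from rat to rat was examined over the 6 pairs of members. For the pair of 5p arms r was 0.02 over the 12 libraries (permutation p = 0.955) and rho was 0.08 (p = 0.816). Without the 2 farthest libraries r was 0.35, and with 1 library left out it ran from -0.19 (without ethanol rat 3) to 0.32 (without ethanol rat 24). These rows share divided reads, so they are not independent. The arms of the miR-135a hairpin had r = 0.54 (permutation p = 0.0671, adjusted over the 6 pairs 0.134) and rho = 0.66 (p = 0.0223, adjusted 0.0670), with r = 0.70 without the 2 farthest libraries. Leaving out ethanol rat 24, where miR-135a-5p had its lowest share of the 5p counts, raised that r to 0.78 (adjusted permutation p = 0.0253), and leaving out ethanol rat 8 lowered it to 0.38 (adjusted permutation p = 0.503). These were the highest and lowest r with a rat left out. The family was selected on the group difference of miR-135a-3p, which is part of any r over both groups. Nothing is therefore read from the p of a pair that includes miR-135a-3p, here or in the next paragraph.

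The arms of the miR-135b hairpin had r = 0.75 (permutation p = 0.00539, adjusted 0.0323) and rho = 0.80 (p = 0.00245, adjusted 0.0147). Since miR-135b-3p was read 1 to 4 times, a relation this sparse has little weight. Without the 2 farthest libraries r was 0.67 (adjusted permutation p = 0.105), with values centred within each group 0.62 (adjusted permutation p = 0.174), and in the 8 ethanol libraries 0.59 (exact permutation p = 0.128), none of which passed 0.05. Leaving out vehicle rat 9, 19 or 20, or ethanol rat 3, 4, 7 or 15, also took its adjusted p above 0.05. For miR-135b-5p with miR-135a-3p r was 0.57 (permutation p = 0.0568, adjusted 0.134) and rho was 0.52 (p = 0.0882). That r fell to 0.45 without the 2 farthest libraries and to 0.40 with values centred within each group. The remaining 2 pairs had r = 0.07 (miR-135a-5p with miR-135b-3p) and r = 0.36 (miR-135a-3p with miR-135b-3p), with rho of 0.22 and 0.39 and permutation p for r of 0.823 and 0.253. Centred within each group, r for these 2 pairs was -0.005 and 0.09. It was then -0.07 for the 5p arms and 0.55 for the arms of miR-135a.

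**Figure D5:**
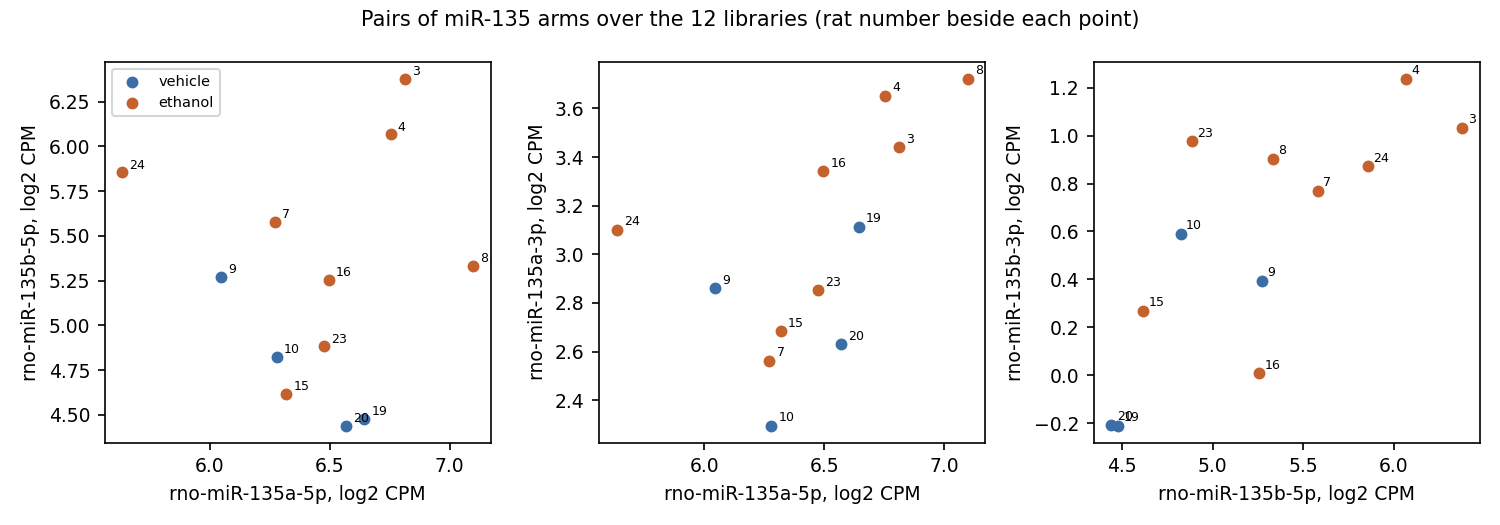
Log2 CPM of 3 pairs of miR-135 arms, each point a library with its rat number, vehicle in blue and ethanol in orange. The 5p arms (left, r = 0.02) were highest in ethanol rat 8 and ethanol rat 3, the arms of miR-135a (middle, r = 0.54) had their 3 highest values in the same rats, and the arms of miR-135b (right, r = 0.75) rest on 1 to 4 reads of the 3p arm.

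The retained miRNAs outside the family whose log2 CPM followed each member most closely over the 12 libraries were also named. For miR-135a-5p these were miR-190b-5p (r = 0.72), miR-19b-3p (r = 0.71), miR-125a-3p, miR-34a-5p and miR-592 (r = 0.65 each). For miR-135a-3p they were miR-592 (r = 0.80), miR-203a-3p (r = 0.79), miR-450b-5p (r = 0.78), miR-363-3p (r = 0.75) and miR-214-3p (r = 0.72). So miR-592 was among the 5 nearest of both miR-135a arms. Its level was 26.3 ± 7.35 CPM (SD, n = 4) in vehicle and 42.3 ± 17.8 (SD, n = 8) in ethanol rats. For miR-135b-5p the 5 were miR-181c-3p (r = 0.80), miR-150-5p (r = 0.78), miR-181c-5p (r = 0.74), miR-542-3p and miR-143-3p (r = 0.73 each), none of which was near either miR-135a arm by this rule. These r values are the highest of 417 and carry no test.

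Markers of the other cell types that hippocampal tissue may hold were set beside the members, in relations chosen after the values were seen. The 4 vessel markers, of which miR-143-3p made up 94.4%, summed to between 38690 and 48386 CPM in vehicle rats and between 32606 and 67959 in ethanol rats. Their sum had r = 0.73 and rho = 0.72 with miR-135b-5p over the 12 libraries, r = 0.50 without the 2 farthest libraries and r = 0.89 within the 8 ethanol libraries. These values carry no test, since miR-143-3p had already been picked for its correlation with miR-135b-5p. Between the groups the vessel markers differed in sign, with log2 differences of 0.25 for miR-143-3p and 0.19 for miR-145-5p of smooth muscle, and of -0.03 and -0.06 for miR-126a-3p and miR-126a-5p of endothelium. The sum of the 6 neuronal markers, of which miR-9a-5p made up 66.0%, was lower where miR-135a-3p was higher (r = -0.82, permutation p = 0.00109, adjusted over 21 relations 0.0229, and rho = -0.73, p = 0.01, adjusted 0.0813), with r = -0.61 without the 2 farthest and r = -0.77 within the ethanol libraries (exact permutation p = 0.0258). The same sum had r = -0.66 with miR-135a-5p (permutation p = 0.0205, adjusted 0.0916, rho = -0.71, adjusted 0.0813) and r = -0.43 with miR-135b-5p (permutation p = 0.162, adjusted 0.426, rho = -0.41, adjusted 0.406). Vessel markers had r = 0.65 with miR-135a-3p (permutation p = 0.0236, adjusted 0.0916, rho = 0.59, adjusted 0.149). Only miR-135a-3p with the neuronal markers passed the adjusted threshold, by r and not by rho. The family was selected on the group difference of miR-135a-3p, and 0 of the 5 tested neuronal markers had a fitted difference above 0, beside 46% of the 420. The r over the 12 libraries therefore includes that group difference, and nothing is read from its p. The same holds for the p of the other marker relations of miR-135a-3p over the 12 libraries, here and in the next paragraph. Levels are shares of each library, and whether this enters these relations was not tested.

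Blood cell and microglial markers (5 of 6 listed) summed to between 432 and 579 CPM in vehicle and between 304 and 722 in ethanol rats. Their r was 0.64 with miR-135a-3p (permutation p = 0.0262, adjusted 0.0916, rho = 0.62, adjusted 0.122) and 0.46 with miR-135b-5p (permutation p = 0.133, adjusted 0.398, rho = 0.31, adjusted 0.483). Within the 8 ethanol libraries these were 0.85 (exact permutation p = 0.0127) and 0.81 (exact permutation p = 0.0167). The p values within the ethanol libraries, here and for the neuronal markers, were not adjusted over the 21 relations. With miR-135a-5p r was 0.38 (adjusted permutation p = 0.471) and rho was 0.64 (adjusted 0.114). Without the 2 farthest libraries r was 0.67 for miR-135a-3p, 0.29 for miR-135b-5p and 0.48 for miR-135a-5p. Choroid plexus markers (5 of 5 listed) summed to between 29006 and 50306 CPM in vehicle and between 16530 and 70943 in ethanol rats, with r between -0.13 and 0.34 for the 3 tested arms. Without the 2 farthest libraries these rose to 0.72 for miR-135a-3p (from 0.34) and to 0.61 for miR-135a-5p (from 0.21), and came to 0.09 for miR-135b-5p. Oligodendrocyte markers (4 of 4, 9542 to 18019 and 10080 to 19407 CPM) had r between -0.08 and 0.18, and between -0.41 and 0.33 without the 2 farthest libraries. Muscle markers (5 of 5, 128 to 1766 and 112 to 1712 CPM) had r between -0.30 and 0.15, and between -0.15 and 0.23 without them. Between the groups, 1 of the 3 muscle markers tested had a raw p under 0.05, beside 4.05% of the 420, and 0 of the tested markers of the other 5 lists did. This was miR-133a-3p, at 453 ± 292 CPM (SD, n = 4) in vehicle and 114 ± 143 (SD, n = 8) in ethanol rats. None of these marker lists had a member with an adjusted p under 0.05 between the groups, and their part in the miR-135 values was not tested.

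Other miRNAs known for roles at synapses and dendritic spines give the family's setting. All 20 of the list were in the files, and 19 were tested. Most were more abundant than the miR-135 arms, 16 of 19 exceeding the mean of miR-135a-5p. The 19 ranged from miR-181a-5p at 136770 CPM down to miR-188-5p at 10.3 CPM. Of the 19, 0 had an adjusted p under 0.05 and 1 had a raw p under 0.05, beside 4.05% of all 420. This was miR-134-5p, which is known to limit dendritic spine growth through Limk1, at 147 ± 9.14 CPM (SD, n = 4) and 181 ± 26.0 (SD, n = 8), a log2 difference of 0.30 (standard error 0.11). The list's median log2 difference was -0.06, beside -0.02 over the 420, and 6 of the 19 had a difference above 0, beside 46% of the 420. Of 3 other miRNAs listed as acting on the serotonin transporter mRNA, 2 were tested, miR-16-5p and miR-24-3p. They had mean levels of 6002 and 3522 CPM, a median log2 difference of 0.03 and no raw p under 0.05.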

How the data were processed

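Each deposited file lists estimated counts (expected counts) of reads per mature miRNA for 1 rat, made by the authors and not scaled to library size. The submitters' processing notes name cutadapt, Partek and the build rn5, without their roles. The counting method and the miRNA annotation are not given in the sources used here. No label names a sequencing batch, and none was compared. Counts were rounded to whole numbers. The filter took its numbers from the study, which stated them for a design of 8 rats per group. On 12 libraries it is not equivalent to the study's filter. It dropped miRNAs that stayed under 10 reads in at least 10 of the libraries. This kept 420 of 753, among them 3 of the 4 miR-135 arms.

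Analyses used R 4.3.3 with edgeR 4.0.16 (TMM factors, quasi-likelihood test, Benjamini-Hochberg adjustment), DESeq2 1.42.0 and limma 3.58.1, and Python 3.11.15 with scipy 1.17.1. The edgeR step was tested on simulated data. Levels are TMM-scaled CPM, and logarithms used a prior count of 2. Within-library ratios were compared by exact permutation of signs, and correlations by 100000 permutations (all 40320 orderings for the 8 ethanol libraries). Labels give separate rats. The paper describes pair housing and allows littermates within a condition. Cage and litter were not taken into account, and all tests treat the rats as independent. The members, the lists (synapse, serotonin transporter, neuron, choroid plexus, oligodendrocyte, vessel, blood cell and microglia, muscle) and the relations examined were chosen with earlier results of these data known. Named miRNAs were the members, the 5 retained miRNAs most correlated with each, seed sharers, neighbours in mean level, and list members with a raw p under 0.05. The relations with library totals and marker sums were added after the values were seen. Alternatives covered the scaling, the filter, the test, rounding, the library total as a covariate, summed arms, the prior count and each rat left out.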

Additional observations from a re-analysis of the deposited data

How the results depend on the processing

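The log2 differences of the 3 tested arms stayed above 0 under each of 12 other settings and with each of 12 rats left out. Each moved by less than the SD of single rats within a group. This SD was 0.40 for miR-135a-5p, 0.54 for miR-135b-5p and 0.41 for miR-135a-3p in log2 CPM. It is a wide bar for a difference between group means, so nothing is read from staying under it. Nor is anything read from the sign. Each setting reuses the libraries on whose miR-135a-3p difference the family was selected. The differences lay between 0.09 and 0.17 for miR-135a-5p, 0.47 and 0.86 for miR-135b-5p and 0.44 and 0.50 for miR-135a-3p under the other settings. No member had an adjusted p under 0.05 in any of these. Over all tested miRNAs the number with an adjusted p under 0.05 was 1 with DESeq2's Wald test and ran from 0 to 3 with a rat left out, the 3 coming without ethanol rat 16. The number with a raw p under 0.05 ran from 5 to 21 with a rat left out (5 without vehicle rat 20, 10 without vehicle rat 9, and 9, 11 and 11 without ethanol rats 3, 4 and 8, beside 17 with all), and was 11 with the library total as a covariate and at most 23 elsewhere. The ratios of the arms kept their direction and passed the test under all settings, with 1.11 to 1.33, 3.38 to 3.51 and 4.64 to 4.77 on the log2 scale as rats were left out. With a prior count of 0.5 the miR-135b arm ratio was 5.33. The correlation of the miR-135b arms passed its test over all 12 libraries but not without the 2 farthest (0.67), within groups (0.62) or in ethanol rats alone (0.59), and ran from 0.70 to 0.85 with a rat left out. That of the miR-135a arms ran from 0.38 to 0.78. The causes were not tested. No paired analysis was possible because the animal numbers are not shared between the groups. Depth limited the 3p arms, with 10 to 38 reads of miR-135a-3p and 1 to 4 of miR-135b-3p.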

Other observations

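The 3 rats with the most miR-135b-5p were also the 3 with the most miR-10b-5p, a miRNA of the Hox gene clusters. This was noticed in the values and carries no test. Levels of miR-10b-5p were 153, 169 and 286 CPM in ethanol rats 3, 4 and 24, and between 5.94 and 41.8 in the other 9 libraries. Over the 12 libraries miR-10b-5p stood at place 11 of 417 in its correlation with miR-135b-5p (r = 0.71). Below these 3 rats the order was not shared, since vehicle rat 9 had the least miR-10b-5p (5.94 CPM) and the sixth highest miR-135b-5p (38.0 CPM).

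By Dixon's criterion, 0 of 16 sets of values (8 miR-135 measures in each group) held a library that stood apart. To be flagged, the gap to the nearest rat had to exceed 0.829 of the range in vehicle and 0.526 in ethanol rats. With so few rats the criterion can miss a distant library, and nothing is concluded from it.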
